A study of Sus scrofa with 61 samples.

Results

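The collagen chain genes expressed in fetal longissimus muscle are described across 4 pig genotypes and 2 gestational days. A microarray probe was taken as a collagen chain probe if the array's gene name, or the symbol in the study's gene lists, had the form COL, number, A, number. Of the 60305 probes of the array, 100 met this rule for 37 gene symbols, and 87 of them were kept because their signal was well above background in a minimum of 80% of the fetuses of any group. For 5 kept probes the sources named different collagens, so these contested probes were used for no gene. The other 82 kept probes stood for 29 genes, of which 25 were above background in all 8 groups. The other 4 were COL4A5 (above background in 7 groups), COL10A1 (2 groups), COL9A1 (1 group) and COL19A1 (1 group). The 29 genes comprised 9 fibrillar chains, 3 basement membrane chains, 6 fibril associated chains, 4 beaded filament chains of type VI, 2 multiplexins, 3 network chains, the anchoring fibril chain COL7A1 and the transmembrane chain COL17A1. COL11A1, COL13A1, COL22A1, COL28A1, COL4A3, COL4A4 and COL9A2 were on the array but were not kept: COL11A1 was well above background on 30 of 61 arrays and COL9A2 on 0. COL20A1 had a contested probe only.

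Collagens are secreted proteins whose chains wind into a helix built from Gly-X-Y repeats, in which glycine is the only residue small enough to sit at the centre. Fibrillar chains assemble into the banded fibres of the muscle's connective tissue sheaths and tendon, mainly types I and III with type V at the fibre core. Type IV chains form the sheet-like network of the basement membrane around each myofibre and capillary, fibril associated chains decorate fibres, and type VI chains form beaded filaments beside the basement membrane. In muscle, fibroblasts are known as the main source of the fibrillar chains, and the collagen sheaths carry force from myofibres to tendon.

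The Gly-X-Y repeat could be read directly in a few of the array probes, which are 60 bases long, and these letters are shown because they tie a probe to the helix of its chain. A glycine codon (GGA, GGC, GGG or GGT) at each Gly position of 1 reading frame was found on the listed strand of 6 of the 100 collagen probes and of 5 of the 60205 other probes, which is 6% and 0.008%. Glycine codons are in capitals, and all 6 probes were kept.
COL1A2: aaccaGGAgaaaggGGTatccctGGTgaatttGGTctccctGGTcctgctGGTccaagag
COL11A2: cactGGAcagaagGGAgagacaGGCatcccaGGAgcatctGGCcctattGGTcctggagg
COL4A1: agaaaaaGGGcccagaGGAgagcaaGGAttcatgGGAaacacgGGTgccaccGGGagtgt
COL7A1: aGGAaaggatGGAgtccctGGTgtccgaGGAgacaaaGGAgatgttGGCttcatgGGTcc
COL8A1: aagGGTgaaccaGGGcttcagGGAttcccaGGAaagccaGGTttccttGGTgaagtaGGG
COL21A1: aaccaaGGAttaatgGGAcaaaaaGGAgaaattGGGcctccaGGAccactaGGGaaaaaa
The COL11A2 probe is the only kept probe of its gene, and the others are further probes of genes whose values are given from a brighter probe. The only COL9A1 probe showed the repeat on the strand opposite to the listed one, and its reverse complement is shown for that reason.
COL9A1, reverse complement: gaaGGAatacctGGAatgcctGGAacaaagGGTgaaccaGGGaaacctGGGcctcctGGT

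The study compared male fetuses taken by caesarean at day 90 (d90) or day 110 (d110) of gestation, by their own genotype and by that of their parents. Large White (LW) and Meishan (MS) are breeds that differ in survival at birth, with MS the better survivor. LWMS fetuses had an MS sow and an LW boar, and MSLW fetuses had an LW sow and an MS boar. Sows of both breeds received mixed semen, so 1 litter held pure and crossed fetuses, and the sow of each fetus is not given in the sources used here. There were 8 fetuses of each genotype at d90, while d110 had 9 fetuses of LW, 7 of MS, 8 of LWMS and 5 of MSLW, so 61 fetuses were measured on 61 single-colour arrays. The muscle was taken whole, so its RNA came from every cell type present, and fewer cells of a type cannot be told apart from less RNA per cell.

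All values are log2 of normalized probe intensity, and differences are log2 differences with the standard error of a limma fit over the 8 groups. Adjusted p-values are those of limma after Benjamini-Hochberg adjustment over 42436 kept probes, a change was called at an adjusted p under 0.01, and p-values measure the spread between these fetuses. The fit took littermates as independent. Pure LW fetuses had LW sows and pure MS fetuses MS sows, so breed comparisons are between litters, and fetal and sow breed cannot be told apart in them. Their p-values, and those for the day and the reciprocal crosses, can therefore be too small. Between 56.95% and 75.75% of the probes were well above background on an array, and no collagen spot was saturated. The arrays of LW d90 replicate 8 and MSLW d90 replicates 2 and 8 stood apart, with 537 to 802 spots marked non-uniform against at most 50 on any other array. Counts for the age changes and for the breed difference in age change are given with and without them. Other counts are not given separately without them. Skeletal muscle markers stood at similar summed levels in all groups (20.6 to 20.9 over 9 of 10 listed genes). Such a sum is carried by the brightest probes, and with age 4 to 6 of the 9 markers rose and 1 or 2 fell. Similar sums therefore do not show an equal myofibre content. Each level belongs to 1 probe, so levels of different genes cannot be set against each other.

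Most collagen chain genes were lower at d110 than at d90 in every genotype. Of the 29 genes, 19 were lower and 0 higher in LW, 19 were lower and 2 higher in LWMS, 21 were lower and 1 higher in MSLW, and 22 were lower and 2 higher in MS. Of all kept probes, 23.5% were lower and 21.8% higher in LW, 25.7% and 25.1% in LWMS, 23.8% and 20.8% in MSLW, and 28.1% and 28.6% in MS. The 0 higher genes in LW compare with 1 gene, COL10A1, that was higher at an unadjusted p under 0.05 by limma. The median difference over the 29 genes was -0.75 in LW, -1.02 in LWMS, -0.94 in MSLW and -1.27 in MS, against 0.03, 0.04, 0.02 and 0.03 over all probes. In all 4 genotypes 17 genes were lower, against 18.4% of all probes, 5 were lower in 1 to 3 genotypes, 3 were higher in at least 1 genotype and 4 were called in none. Of the 3 higher genes, COL9A1 and COL10A1 passed the background filter only through d110 groups, so that they were higher at d110 is in part set by the filter, and COL6A5 was above background in all groups. The COL9A1 probe also carries the helix repeat on the opposite strand only, and may not measure the transcript of its gene. Without the 3 arrays that stood apart, 20 genes were lower in LW, 22 were lower and 3 higher in MS, 19 were lower and 2 higher in LWMS, and 20 were lower and 0 higher in MSLW.

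**Figure D1:**
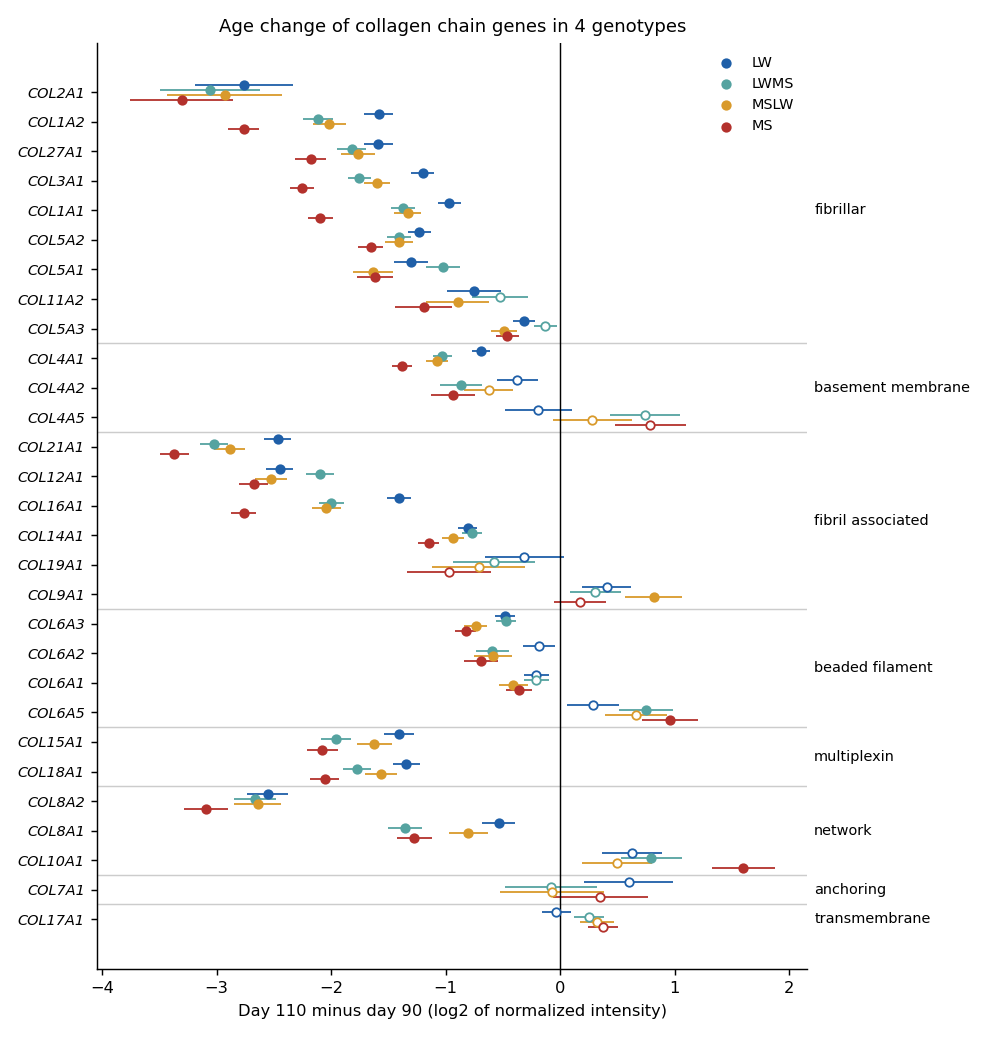
Difference between day 110 and day 90 of each collagen chain gene (x axis, log2 of normalized intensity) in the 4 genotypes, by class (y axis); bars are the standard error of the fit and filled points have an adjusted p under 0.01. Most points lie left of 0, MS is farthest left for most fibrillar chains, and COL6A5, COL9A1 and COL10A1 lie to the right.

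On the brightest probe of each gene, all 9 fibrillar chains were lower in LW, MSLW and MS and 7 were lower in LWMS. The class medians were -1.23 in LW, -1.41 in LWMS, -1.60 in MSLW and -2.09 in MS. COL1A1 and COL1A2 encode both chains of type I collagen, the main fibre protein of muscle connective tissue. At d90 COL1A1 ran from 16.44 to 16.84 (median 16.63) in LW fetuses and from 16.63 to 16.78 (median 16.72) in MS fetuses. At d110 COL1A1 ran from 15.21 to 15.99 (median 15.80) in LW and 14.45 to 14.87 (median 14.60) in MS. In the crosses COL1A1 ran from 16.61 to 16.82 (median 16.64) in LWMS and 16.45 to 16.96 (median 16.64) in MSLW at d90, from 14.85 to 15.91 (median 15.23) in LWMS at d110, and was 15.09, 15.12, 15.22, 15.41 and 15.76 in the 5 MSLW fetuses of d110. The days did not overlap in any genotype, the 4 genotypes overlapped at d90, and at d110 every MS fetus was below every LW fetus. Of the 13 cross fetuses of d110, 8 lay in the LW range, 4 between the breeds and 1 in the MS range. The difference of COL1A1 was -0.97 ± 0.10 in LW (adjusted p 4.7e-12), -1.37 ± 0.11 in LWMS, -1.33 ± 0.12 in MSLW and -2.09 ± 0.11 in MS (adjusted p 3.8e-24). This was a 1.95-fold fall in LW and a 4.27-fold fall in MS.

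COL1A2 followed the same course. It ran from 16.59 to 17.10 (median 16.78) in LW and 16.66 to 16.92 (median 16.86) in MS at d90, and from 14.64 to 15.56 (median 15.23) in LW and 13.81 to 14.41 (median 13.95) in MS at d110. In LWMS it ran from 16.62 to 16.96 (median 16.83) at d90 and from 14.23 to 15.34 (median 14.59) at d110, and in MSLW from 16.60 to 17.15 (median 16.70) at d90 with 14.54, 14.57, 14.61, 14.75 and 15.45 at d110. The days again did not overlap in any genotype. COL1A2 fell 3.002-fold in LW, 4.33-fold in LWMS, 4.05-fold in MSLW and 6.79-fold in MS, with differences of -1.59 ± 0.12, -2.12 ± 0.13, -2.02 ± 0.15 and -2.76 ± 0.13. Its 4 probes gave -1.59 to -1.27 in LW and -2.76 to -2.09 in MS, and the probe of the helix repeat printed above gave -1.51 in LW and -2.09 in MS.

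COL3A1, the chain of type III collagen that runs with type I in the finer fibres, ran from 16.54 to 17.08 (median 16.88) in LW and 16.87 to 17.07 (median 16.99) in MS at d90, and from 15.13 to 15.93 (median 15.63) in LW and 14.43 to 14.95 (median 14.69) in MS at d110. In the crosses it ran from 16.81 to 17.13 (median 16.995) in LWMS and from 16.76 to 17.003 (median 16.87) in MSLW at d90, from 14.73 to 15.59 (median 15.24) in LWMS at d110, and was 15.03, 15.05, 15.22, 15.27 and 15.83 in MSLW at d110. No d110 fetus reached a d90 fetus of its genotype. COL3A1 fell 2.30-fold in LW, 3.37-fold in LWMS, 3.03-fold in MSLW and 4.76-fold in MS (differences of -1.20 ± 0.10, -1.75 ± 0.10, -1.60 ± 0.12 and -2.25 ± 0.11).

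**Figure D2:**
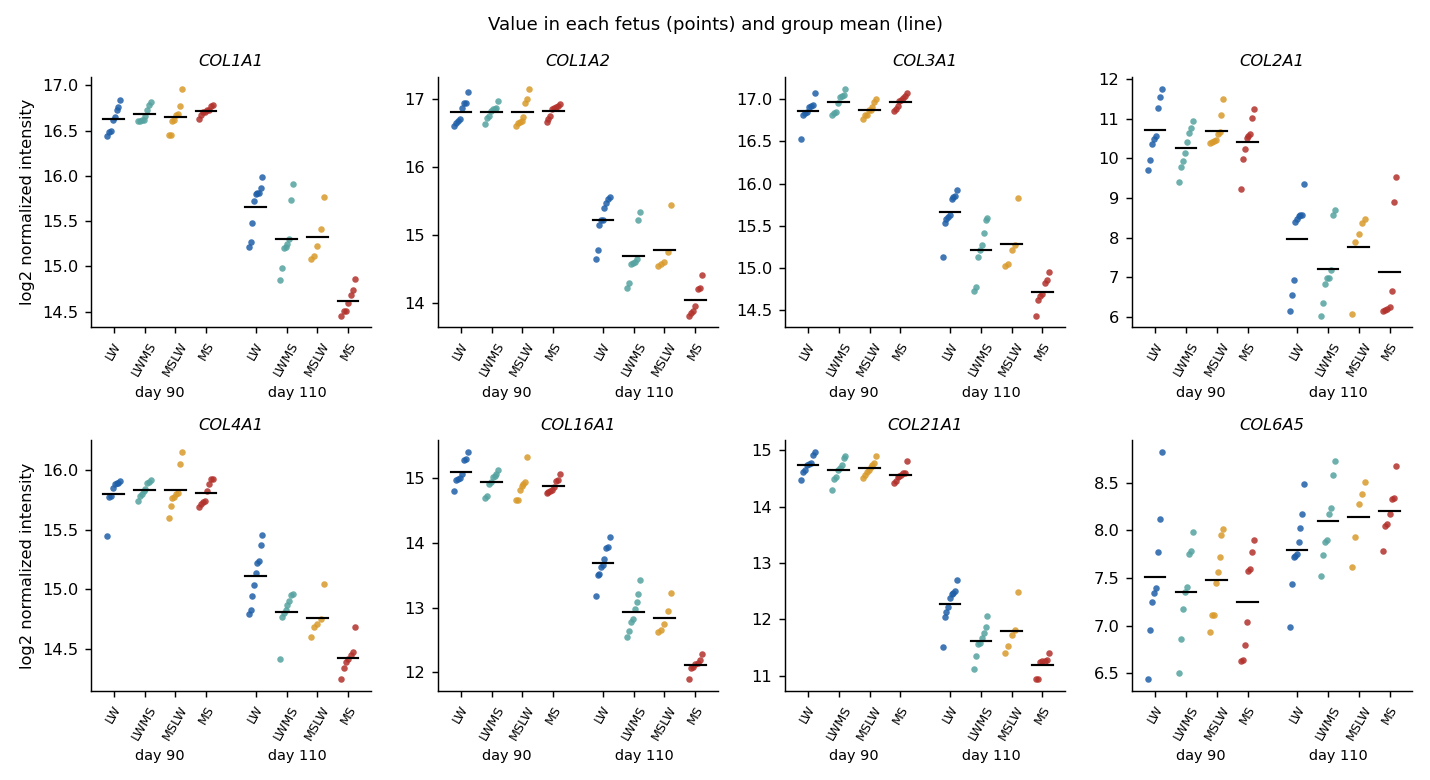
Value in each fetus (points, placed in order of value) and group mean (line) of 8 collagen chain genes, with log2 normalized intensity on the y axis and genotype and gestational day on the x axis; each panel has its own scale. For COL1A1, COL1A2, COL3A1, COL16A1 and COL21A1 every d110 fetus lies below every d90 fetus of its genotype, COL2A1 is widely spread at d110, and COL6A5 is higher at d110 in MS and LWMS.

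COL2A1, the chain of cartilage collagen, had the largest fall among the fibrillar chains and a wide spread at d110. It ran from 9.70 to 11.77 (median 10.54) in LW and 9.22 to 11.24 (median 10.54) in MS at d90, and from 6.14 to 9.36 (median 8.47) in LW and 6.15 to 9.53 (median 6.26) in MS at d110. In the crosses it ran from 9.42 to 10.95 (median 10.27) in LWMS and from 10.38 to 11.50 (median 10.55) in MSLW at d90, from 6.02 to 8.69 (median 6.98) in LWMS at d110, and was 6.06, 7.89, 8.08, 8.36 and 8.46 in MSLW at d110. The days did not overlap in LW, LWMS and MSLW but did in MS, where the highest d110 fetus lay above the lowest d90 fetus. The differences were -2.76 ± 0.43 in LW, -3.06 ± 0.44 in LWMS, -2.93 ± 0.50 in MSLW and -3.31 ± 0.45 in MS, that is 6.78-fold, 8.33-fold, 7.62-fold and 9.89-fold. COL11A2, a minor chain of cartilage fibres, fell in LW (-0.75), MSLW (-0.89) and MS (-1.19), and in LWMS its difference of -0.52 ± 0.24 was not called (adjusted p 0.058). The MSLW call of COL11A2 was lost in 5 of 14 alternatives, among them without the 3 arrays that stood apart (adjusted p up to 0.032). Cartilage and bone markers moved with these genes: 4 or 5 of 7 measured markers fell in each genotype, among them COMP (-1.92 in LW and -2.05 in MS), ACAN (-1.62 and -1.56) and SOX9 (-1.10 and -1.46), while BGLAP (0.32) and RUNX2 (0.63) rose in MS, and the summed level was 13.1 to 13.6 at d90 and 12.03 to 12.7 at d110 in LW, against 12.8 to 13.2 and 11.8 to 12.025 for MS. Their part in the result was not tested.

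COL27A1, a fibrillar chain of cartilage and other tissues, ran from 10.25 to 11.12 (median 10.69) in LW and 10.41 to 10.78 (median 10.62) in MS at d90, and from 8.61 to 9.75 (median 8.96) in LW and 8.23 to 8.87 (median 8.34) in MS at d110. In the crosses COL27A1 ran from 10.35 to 10.63 (median 10.52) in LWMS and from 10.47 to 10.77 (median 10.59) in MSLW at d90, from 8.33 to 8.98 (median 8.73) in LWMS at d110, and was 8.46, 8.61, 8.69, 9.09 and 9.46 in MSLW at d110. The ranges of the days were apart in all 4 genotypes. It fell 3.01-fold in LW, 3.54-fold in LWMS, 3.40-fold in MSLW and 4.53-fold in MS. COL5A1 and COL5A2, chains of the type V collagen that starts fibre assembly, were lower in all 4 genotypes, with differences of -1.30 in LW, -1.02 in LWMS, -1.64 in MSLW and -1.62 in MS for COL5A1 and of -1.23, -1.41, -1.41 and -1.65 for COL5A2. COL5A3, the third type V chain, had the smallest fall of the class: -0.31 ± 0.10 in LW, -0.49 ± 0.11 in MSLW and -0.46 ± 0.10 in MS, with -0.13 ± 0.10 in LWMS not called (adjusted p 0.26). These are values of its brighter probe. The other COL5A3 probe gave 0.02 in LW, 0.16 in LWMS, -0.19 in MSLW and -0.05 in MS, none called. With arrays scaled to their 75th percentile the falls of COL5A3 were no longer called (adjusted p 0.67 in LW, 0.62 in MS and 0.20 in MSLW). The LW call was lost in 2 of 10 alternatives.

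The 3 basement membrane chains had class medians of -0.37 in LW, -0.87 in LWMS, -0.63 in MSLW and -0.94 in MS. COL4A1 and COL4A2 encode the chains of the most widespread type IV collagen. COL4A1 ran from 15.45 to 15.91 (median 15.87) in LW and 15.69 to 15.93 (median 15.78) in MS at d90, and from 14.79 to 15.46 (median 15.14) in LW and 14.24 to 14.68 (median 14.41) in MS at d110. In the crosses COL4A1 ran from 15.74 to 15.92 (median 15.84) in LWMS and from 15.60 to 16.16 (median 15.79) in MSLW at d90, from 14.41 to 14.96 (median 14.85) in LWMS at d110, and was 14.60, 14.69, 14.71, 14.75 and 15.04 in MSLW at d110. The days overlapped only in LW, through 1 fetus at d90 that lay apart from the others, LW d90 replicate 8, whose array was 1 of the 3 that stood apart. COL4A1 fell in all 4 genotypes, 1.62-fold in LW, 2.04-fold in LWMS, 2.11-fold in MSLW and 2.60-fold in MS (differences of -0.69 ± 0.08, -1.03 ± 0.08, -1.08 ± 0.09 and -1.38 ± 0.09). Its 5 probes gave -0.69 to -0.13 in LW, 4 of them called, and -1.38 to -0.54 in MS, all called. The probe of the helix repeat gave the smallest differences in both genotypes.

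COL4A2 ran from 13.60 to 14.35 (median 14.17) in LW and 13.96 to 14.67 (median 14.33) in MS at d90, and from 13.24 to 14.31 (median 13.74) in LW and 13.05 to 13.65 (median 13.41) in MS at d110. In the crosses COL4A2 ran from 14.01 to 14.52 (median 14.35) in LWMS and from 12.58 to 14.997 (median 14.39) in MSLW at d90, from 12.50 to 13.83 (median 13.58) in LWMS at d110, and was 13.24, 13.46, 13.56, 13.70 and 13.90 in MSLW at d110. The days did not overlap in MS and LWMS and overlapped in LW and MSLW. COL4A2 fell 1.91-fold in MS and 1.82-fold in LWMS, and was not called in LW (-0.37 ± 0.18, adjusted p 0.076) or MSLW (-0.63 ± 0.21, adjusted p 0.011). Both calls were lost with arrays scaled to their 75th percentile, at adjusted p 0.041 in MS and 0.025 in LWMS. COL4A5, a chain of the specialised type IV networks encoded on the X chromosome, was near the detection limit, from 4.09 to 6.83 (median 4.80) in LW and 2.07 to 5.63 (median 5.08) in MS at d90 and from 3.997 to 5.68 (median 4.71) in LW and 5.10 to 5.95 (median 5.50) in MS at d110. In the crosses COL4A5 ran from 4.26 to 5.53 (median 4.94) in LWMS and from 4.21 to 5.21 (median 4.59) in MSLW at d90, from 4.94 to 5.99 (median 5.72) in LWMS at d110, and was 4.69, 4.73, 4.80, 4.88 and 5.32 in MSLW at d110. The days overlapped, and no change of COL4A5 was called (-0.19 in LW, 0.74 in LWMS, 0.28 in MSLW and 0.79 in MS). Endothelial markers, a type that also lays down type IV collagen, moved with COL4A1: 5 of 7 fell and VWF rose in each genotype, with CLDN5 at -1.30 in LW and -1.78 in MS and CDH5 at -1.05 and -1.33, and their summed level was 15.8 to 16.1 at d90 and 14.8 to 15.3 at d110 in LW, against 15.8 to 16.3 and 14.6 to 14.9 for MS. Their part in the result was not tested.

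Of the 6 fibril associated chains, COL12A1, COL14A1, COL16A1 and COL21A1 fell in all 4 genotypes. COL21A1 had the largest fall of any collagen gene in MS. It ran from 14.47 to 14.97 (median 14.75) in LW and 14.42 to 14.81 (median 14.55) in MS at d90, and from 11.52 to 12.69 (median 12.38) in LW and 10.94 to 11.41 (median 11.26) in MS at d110. In the crosses COL21A1 ran from 14.30 to 14.90 (median 14.66) in LWMS and from 14.50 to 14.89 (median 14.67) in MSLW at d90, from 11.13 to 12.07 (median 11.63) in LWMS at d110, and was 11.40, 11.54, 11.72, 11.82 and 12.48 in MSLW at d110. A gap of more than 1 log2 unit separated the days in each genotype. COL21A1 fell 5.52-fold in LW, 8.11-fold in LWMS, 7.40-fold in MSLW and 10.3-fold in MS (differences of -2.47 ± 0.12, -3.02 ± 0.12, -2.89 ± 0.14 and -3.37 ± 0.13), and its 4 probes gave -2.47 to -1.95 in LW and -3.37 to -3.01 in MS.

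COL16A1 ran from 14.79 to 15.40 (median 15.03) in LW and 14.77 to 15.06 (median 14.84) in MS at d90, and from 13.17 to 14.09 (median 13.66) in LW and 11.89 to 12.29 (median 12.13) in MS at d110. In the crosses COL16A1 ran from 14.69 to 15.13 (median 14.98) in LWMS and from 14.66 to 15.32 (median 14.88) in MSLW at d90, from 12.55 to 13.42 (median 12.90) in LWMS at d110, and was 12.62, 12.65, 12.74, 12.95 and 13.23 in MSLW at d110. At d110 the medians of both crosses lay between those of LW and MS, and every MS fetus was below every other d110 fetus. COL16A1 fell 2.65-fold in LW, 3.996-fold in LWMS, 4.12-fold in MSLW and 6.79-fold in MS (differences of -1.41 ± 0.11, -1.999 ± 0.11, -2.04 ± 0.13 and -2.76 ± 0.11). COL12A1, which binds type I fibres, ran from 13.04 to 13.75 (median 13.46) in LW and 12.29 to 13.30 (median 12.86) in MS at d90, and from 10.36 to 11.27 (median 11.05) in LW and 9.96 to 10.42 (median 10.15) in MS at d110. In the crosses COL12A1 ran from 12.50 to 13.19 (median 12.88) in LWMS and from 12.84 to 13.45 (median 12.97) in MSLW at d90, from 10.60 to 11.15 (median 10.75) in LWMS at d110, and was 10.22, 10.37, 10.51, 10.52 and 10.92 in MSLW at d110. Its days did not overlap, and it fell 5.46-fold in LW, 4.28-fold in LWMS, 5.76-fold in MSLW and 6.39-fold in MS. COL14A1, another fibre-binding chain, fell by less: -0.81 in LW, -0.77 in LWMS, -0.94 in MSLW and -1.15 in MS, and all 12 of its probes fell in LW and MS. Tendon markers moved with this group, since TNMD (-2.66 in LW and -3.93 in MS), THBS4 (-2.24 and -2.51) and FMOD (-1.17 and -1.43), the 3 of 5 that were measured, fell in all 4 genotypes, and their summed level was 10.4 to 12.1 at d90 and 7.05 to 9.99 at d110 in LW, against 10.3 to 11.8 and 6.97 to 7.83 for MS. Their part in the result was not tested.

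COL19A1 was above background on 7 of 8 LW, 5 of 8 LWMS, 5 of 8 MSLW and 3 of 8 MS arrays at d90, and on 4 of 9, 1 of 8, 1 of 5 and 0 of 7 at d110. Its age change was called in no genotype, and no size is given because the d110 groups were mostly not above background. COL9A1, a fibril associated chain of cartilage, ran from 3.14 to 4.03 (median 3.75) in LW and 1.59 to 4.18 (median 3.79) in MSLW at d90, and from 3.35 to 4.79 (median 4.06) in LW with 4.13, 4.30, 4.40, 4.45 and 4.61 in MSLW at d110. In MS it ran from 3.57 to 4.77 (median 4.07) at d90 and from 4.03 to 4.65 (median 4.25) at d110, and in LWMS from 3.20 to 4.40 (median 3.62) and from 3.56 to 4.66 (median 3.99). The days overlapped in each genotype. COL9A1 passed the background filter only through MSLW d110, the group in which it is highest, so its difference there is no independent result. It was called higher in MSLW alone (0.82 ± 0.25, adjusted p 0.0048), with 0.41 in LW, 0.31 in LWMS and 0.18 in MS, and whether MSLW differed from the other genotypes was not tested. That call was lost in 6 of 13 alternatives (adjusted p up to 0.035), including the one without the 3 arrays that stood apart. The probe was above background on 38 of 61 arrays, and its letters follow the repeat on the opposite strand only. Whether the probe measures the COL9A1 transcript was not tested, so its values may not be those of the gene.

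Both multiplexins, COL15A1 and COL18A1, whose chains sit at the outer side of basement membranes, fell in all 4 genotypes. COL15A1 ran from 13.93 to 14.33 (median 14.23) in LW and 14.38 to 15.03 (median 14.72) in MS at d90, and from 12.12 to 13.09 (median 12.93) in LW and 12.26 to 13.09 (median 12.60) in MS at d110, and fell 2.65-fold in LW, 3.88-fold in LWMS, 3.08-fold in MSLW and 4.22-fold in MS. In the crosses COL15A1 ran from 14.44 to 14.94 (median 14.56) in LWMS and from 14.30 to 14.81 (median 14.54) in MSLW at d90, from 12.28 to 12.97 (median 12.67) in LWMS at d110, and was 12.53, 12.71, 12.81, 13.005 and 13.70 in MSLW at d110. COL18A1 ran from 13.80 to 14.33 (median 13.98) in LW and 13.42 to 14.12 (median 13.87) in MS at d90, and from 12.45 to 13.03 (median 12.59) in LW and 11.52 to 12.05 (median 11.69) in MS at d110, and fell 2.54-fold in LW, 3.43-fold in LWMS, 2.95-fold in MSLW and 4.16-fold in MS. In the crosses COL18A1 ran from 13.47 to 14.34 (median 13.83) in LWMS and from 13.51 to 14.12 (median 13.93) in MSLW at d90, from 11.82 to 12.57 (median 11.98) in LWMS at d110, and was 11.95, 12.12, 12.35, 12.49 and 12.83 in MSLW at d110. Neither gene's days overlapped in any genotype. Of the network chains, COL8A2, known from vessel walls and the cornea, ran from 10.73 to 11.61 (median 11.17) in LW and 10.46 to 11.13 (median 10.90) in MS at d90, and from 7.63 to 9.27 (median 8.73) in LW and 7.15 to 8.30 (median 7.74) in MS at d110. In the crosses COL8A2 ran from 10.33 to 11.30 (median 10.77) in LWMS and from 10.90 to 11.55 (median 11.04) in MSLW at d90, from 7.47 to 8.67 (median 8.13) in LWMS at d110, and was 7.92, 8.22, 8.39, 8.49 and 9.29 in MSLW at d110. Its days were likewise apart in all 4 genotypes, and it fell 5.87-fold in LW, 6.35-fold in LWMS, 6.25-fold in MSLW and 8.54-fold in MS. COL8A1, the partner chain of COL8A2, fell by less, with differences of -0.54 in LW, -1.36 in LWMS, -0.80 in MSLW and -1.27 in MS, and 2 of its 3 probes were called in LW and in MS; its probe of the helix repeat was not.

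COL10A1, the network chain made by hypertrophic cartilage cells, passed the background filter only through the d110 groups of MS and MSLW, so its higher level there is no independent result. It was near the detection limit, from 1.82 to 4.28 (median 3.26) in MS at d90, where 2 of 8 arrays were above background, to 4.53 to 5.12 (median 5.02) at d110, where 6 of 7 were. In LWMS COL10A1 ran from 3.43 to 4.18 (median 3.72) at d90 and from 4.10 to 5.37 (median 4.42) at d110, and in LW from 2.54 to 4.43 (median 3.77) and from 3.79 to 4.87 (median 4.30). In MSLW COL10A1 ran from 3.38 to 5.55 (median 3.95) at d90 and was 4.51, 4.58, 4.61, 4.89 and 5.59 at d110. The days did not overlap in MS, and overlapped in LW, LWMS and MSLW. COL10A1 was called higher in MS (1.60 ± 0.28) and LWMS (0.80 ± 0.27), and the differences in LW (0.63 ± 0.26, adjusted p 0.035) and MSLW (0.49 ± 0.30) were not called. The LWMS call was lost with the deposited values, with another background correction and without a filter (adjusted p up to 0.029).

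The 4 chains of type VI collagen, which ties the basement membrane to the fibres, went in different directions. COL6A3 fell in all 4 genotypes (-0.48 in LW, -0.47 in LWMS, -0.74 in MSLW and -0.82 in MS). Only 5 of its 10 probes were called lower in LW and in MS, although all were negative in MS (-1.63 to -0.21). The calls in LW and LWMS were lost with arrays scaled to their 75th percentile (adjusted p 0.034 and 0.15). COL6A1 was called lower in MSLW (-0.41) and MS (-0.36) and COL6A2 in LWMS (-0.59), MSLW (-0.59) and MS (-0.69). Those calls rest on the brightest probe: the probes of COL6A1 gave -0.36 to 0.21 in MS and those of COL6A2 -0.69 to 0.42, with 1 called lower and 1 higher, and no age call of either gene was left with the mean of its probes. COL6A5, an alternative partner of the first type VI chains, moved the other way. It ran from 6.43 to 8.83 (median 7.37) in LW and 6.63 to 7.90 (median 7.31) in MS at d90, and from 6.99 to 8.49 (median 7.76) in LW and 7.78 to 8.67 (median 8.17) in MS at d110. In the crosses COL6A5 ran from 6.50 to 7.98 (median 7.38) in LWMS and from 6.93 to 8.02 (median 7.51) in MSLW at d90, from 7.52 to 8.73 (median 8.04) in LWMS at d110, and was 7.62, 7.93, 8.28, 8.38 and 8.51 in MSLW at d110. The ranges of the days overlapped in each genotype. COL6A5 rose 1.95-fold in MS (0.96 ± 0.24, adjusted p 0.00053) and 1.68-fold in LWMS (0.75 ± 0.24, adjusted p 0.0053), and was not called in MSLW (0.66 ± 0.27, adjusted p 0.033) or LW (0.29 ± 0.23). COL17A1, a transmembrane chain of skin attachment plaques, was called in no genotype (-0.04 in LW, 0.25 in LWMS, 0.32 in MSLW and 0.37 in MS).

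The number of genes whose d90 and d110 fetuses did not overlap was 14 of 29 in LW, 18 in LWMS, 18 in MSLW and 19 in MS, against 23.3%, 30.4%, 28.0% and 37.9% of all probes. The arrays lay on 8 slides, each of which held both days, and within slides the mean age difference over the genotypes was negative on 8 of 8 slides for each of the 22 genes called lower in any genotype. It was positive on 8 of 8 slides for COL6A5. The slides hold the same arrays that gave the calls, so these signs are no independent result.

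Fibroblast markers moved with the collagen genes. Of 7 markers, all measured, 6 fell and GSN rose in LW, 5 fell in LWMS and in MS, and 6 fell in MSLW. The largest falls by the mean over the 4 genotypes were those of THY1 (-2.64 in LW and -3.49 in MS), DCN (-1.26 and -1.83) and LUM (-0.89 and -1.70). Their summed level was 17.2 to 17.4 at d90 in LW and in MS, and at d110 it was 15.9 to 16.8 in LW, 15.8 to 16.0 in MS, 15.9 to 16.4 in LWMS and 16.0 to 16.4 in MSLW. Their part in the result was not tested. Of the other lists, 1 or 2 of 9 myofibre markers fell (MYH3 at -1.31 in LW and -3.59 in MS) and 4 to 6 rose, among them NEB (0.48 and 0.87) and TNNT3 (0.34 and 0.71). Smooth muscle and pericyte markers split, with RGS5 and PDGFRB lower and ACTA2 and TAGLN higher of 6. Adipocyte markers (5 measured, 0 to 2 lower, CIDEC higher), immune markers (5 measured, 1 or 2 lower, AIF1 in each genotype) and epithelial markers (3 of 4 measured, EPCAM and CDH1 lower in each genotype, KRT5 higher in LWMS, MSLW and MS) were the other lists counted.

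Most measured genes that modify and export collagen chains were also lower at d110. Of 23 measured genes of 26 for hydroxylation, folding and secretion, 17 fell and 1 rose in LW, 19 fell and 1 rose in LWMS, 18 fell and 1 rose in MSLW, and 20 fell and 1 rose in MS, with list medians of -0.91, -1.17, -1.07 and -1.33. The largest changes by the mean over the 4 genotypes were those of FKBP10, a chaperone of collagen folding (-1.78 in LW and -2.62 in MS), P4HA3, a prolyl hydroxylase chain (-1.52 and -2.86), and SERPINH1, the collagen chaperone of the endoplasmic reticulum (-1.35 and -2.23), and CTAGE5, a factor of collagen export, rose (0.45 and 0.71). Of 9 measured genes of 13 for propeptide removal and crosslinking, 5 fell and 1 rose in LW, 5 fell and 1 rose in LWMS, 4 fell and 1 rose in MSLW, and 5 fell and 3 rose in MS. PCOLCE2, an enhancer of propeptide cleavage, rose (2.60 in LW and 2.05 in MS), while PCOLCE, its relative, fell (-1.11 and -1.95), and TLL2, a protease of this group, fell in LW (-1.97), MS (-1.17) and LWMS (-1.77). Of 9 measured genes of 12 for degradation and uptake, 6 fell in LW and 8 in each of the other genotypes, and MMP9 alone rose (0.59 in LW and 1.11 in MS). FAP (-1.70 and -2.46), the collagenase MMP14 (-1.44 and -2.07) and the uptake receptor MRC2 (-1.43 and -1.79) had the largest falls. Of 6 measured collagen receptors of 9, ITGA1, ITGA2, ITGB1 and DDR2 fell in each genotype, with ITGA2 at -1.62 in LW and -1.64 in MS, DDR2 at -0.92 and -1.40 and ITGA1 at -0.94 and -1.05. The other 2 receptors rose in some genotypes, DDR1 in LW (0.48) and LWMS (0.42) and GP6 in MS (0.78).

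Fewer collagen genes differed between the breeds at d90 than at d110. At d90 4 of 29 genes were lower and 1 higher in MS than in LW, against 6.61% and 6.23% of all probes. The lower genes were COL5A1 (-0.64 ± 0.15), COL12A1 (-0.59 ± 0.12), COL6A1 (-0.49 ± 0.11) and COL7A1 (-1.85 ± 0.40), and the higher gene was COL15A1 (0.52 ± 0.13). COL15A1 was called on 1 of its 4 probes, which ran from -0.18 to 0.52, and neither it nor COL5A1 was called with the mean of the probes (adjusted p 0.71 and 0.028). COL5A1 was called on 2 of its 4 probes (-0.67 to -0.02), and COL12A1 and COL6A1 each on 1 of 2. The type I and III chains were not called at d90, with 95% intervals of -0.12 to 0.30 for COL1A1, -0.25 to 0.26 for COL1A2 and -0.09 to 0.32 for COL3A1. The breeds did not overlap at d90 for 4 genes, COL5A1, COL6A1, COL7A1 and COL15A1, against 6.75% of all probes.

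At d110 18 of 29 genes were lower and 0 higher in MS than in LW, against 15.2% and 13.7% of all probes, and by limma 2 genes, COL4A5 and COL10A1, were higher at an unadjusted p under 0.05. The lower genes included 6 of 9 fibrillar chains, 1 of 3 basement membrane chains and 5 of 6 fibril associated chains, and the class medians were -0.83, -0.33 and -0.95. COL19A1 is counted among the lower fibril associated chains. It passed the background filter only through LW d90, so that it was lower in MS is in part set by the filter. COL16A1 differed most among the genes above background in all groups except COL7A1, by -1.57 ± 0.11 or 2.98-fold. COL1A2 (-1.17 ± 0.13), COL21A1 (-1.08 ± 0.12), COL1A1 (-1.04 ± 0.11), COL5A1 (-0.95 ± 0.15), COL3A1 (-0.94 ± 0.10) and COL18A1 (-0.94 ± 0.12) followed, each about 2-fold lower on its brightest probe. COL5A1 was called on 2 of its 4 probes, which ran from -0.95 to -0.28. Of the genes COL16A1, COL1A1, COL1A2, COL3A1, COL4A1, COL5A1, COL6A3, COL7A1, COL18A1, COL19A1 and COL21A1, no MS fetus overlapped an LW fetus, which is 11 of 29 against 8.27% of all probes. The place of COL19A1 among them is likewise in part set by the filter.

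Smaller differences at d110 were called for COL12A1 (-0.81), COL8A2 (-0.84), COL4A1 (-0.69), COL27A1 (-0.67), COL5A2 (-0.63), COL6A1 (-0.64), COL6A2 (-0.72), COL6A3 (-0.54) and COL14A1 (-0.51). COL6A2 was called on 1 of its 3 probes (-0.72 to 0.30) and was not called with their mean (adjusted p 0.024). COL14A1 was called on 6 of its 12 probes, COL6A3 on 6 of its 10 (-0.87 to -0.14), COL6A1 on 1 of its 2 and COL4A1 on 4 of its 5. COL2A1 (-0.83 ± 0.44, adjusted p 0.13), COL11A2 (-0.70 ± 0.24, adjusted p 0.019), COL4A2 (-0.33), COL5A3 (-0.14), COL8A1 (-0.35), COL17A1 (0.24), COL9A1 (0.23) and COL6A5 (0.40) were not called. COL15A1 was not called on its brightest probe (-0.15 ± 0.13), while 3 of its 4 probes were lower, down to -1.25, and the mean of the probes gave -0.79. COL19A1 was above background on 4 of 9 LW arrays at d110 and on none in MS, so no size of its difference is given. It was called lower in MS (limma adjusted p 3.3e-05), with group means of 4.26 in LW and 2.40 in MS. The call was lost with the deposited values (adjusted p 0.017). Since COL19A1 passed the background filter only through LW d90, a group of the breed in which it was higher, its difference is no independent result. Both breeds lay on 6 of the slides at d110, and the within-slide difference was negative on 6 of 6 slides for 17 of the 18 genes called and on 5 of 6 for COL14A1. These slides hold arrays that gave the calls, so the signs are no independent result.

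**Figure D3:**
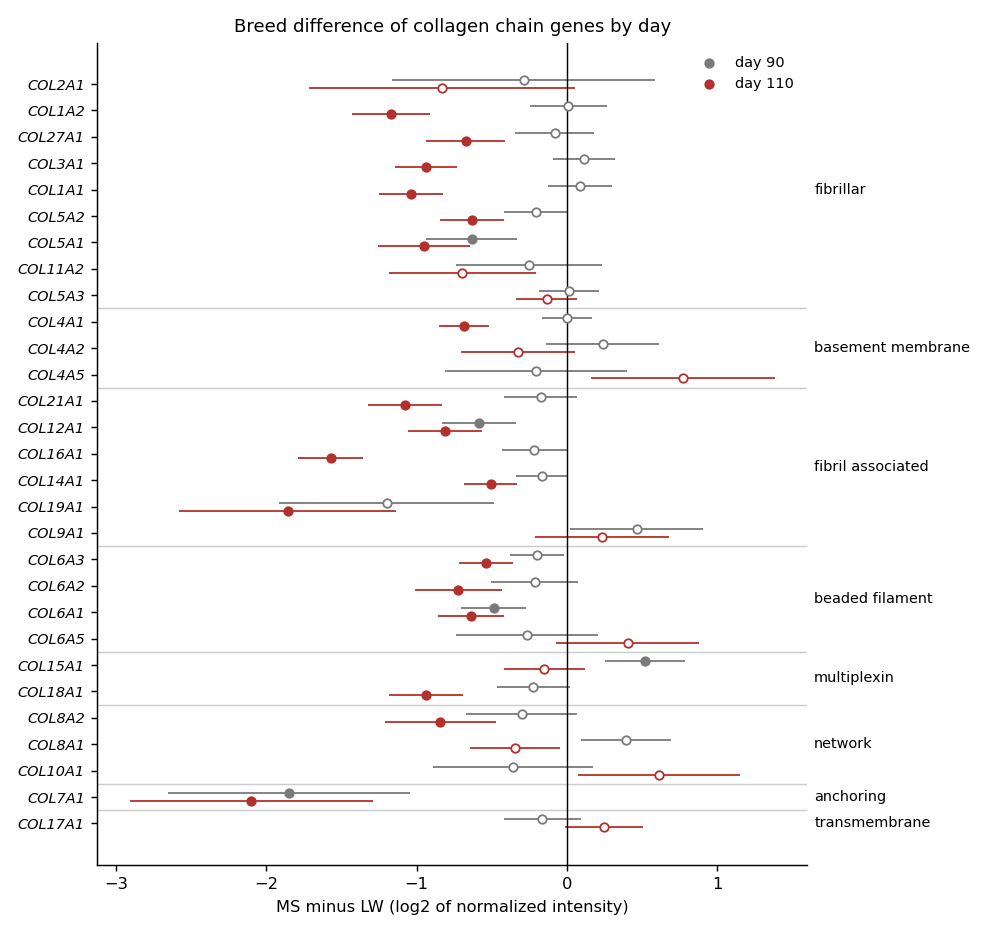
Difference between MS and LW of each collagen chain gene (x axis, log2 of normalized intensity) at day 90 and day 110, by class (y axis); bars are 95% confidence intervals and filled points have an adjusted p under 0.01. Most day 110 points lie left of 0, with COL7A1 and COL16A1 far to the left, while COL19A1 is drawn at its fitted value although no MS array of day 110 was above background for it, and most day 90 intervals reach 0.

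Markers differed between the breeds at d110 in both directions. Of 7 fibroblast markers DCN (-0.56) and LUM (-1.11) were lower in MS, of 7 endothelial markers CLDN5 (-0.41) and KDR (-1.31), of 3 tendon markers THBS4 (-1.03) and TNMD (-1.33), of 7 cartilage and bone markers COMP (-0.88) and SPP1 (-0.36), and of 5 adipocyte markers FABP4 (-1.16). Higher in MS were BGLAP (0.47), the myofibre markers NEB (0.40) and TTN (0.73), ACTA2 (0.43) and RGS5 (0.37) of smooth muscle and pericytes, CD14 (0.52) and KRT5 (0.81), while MYH3 (-2.87), CNN1 (-1.17) and PDGFRB (-0.32) were lower. The summed fibroblast level was 15.9 to 16.8 in LW and 15.8 to 16.0 in MS, and that of tendon 7.05 to 9.99 and 6.97 to 7.83. Their part in the result was not tested. Of the list for hydroxylation, folding and secretion, 15 of 23 genes were lower and 2 higher in MS, led by P4HA3 (-2.54), FKBP14 (-1.04) and SERPINH1 (-1.04), of the list for propeptides and crosslinking 3 of 9 were lower (LOXL2, PCOLCE and ADAMTS2), of that for degradation and uptake 7 of 9 were lower and MMP9 higher, and of 6 receptors DDR1 alone was lower (-0.73).

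The test of the difference itself, the age change in MS less that in LW, was called for 7 of 29 genes, all with the larger fall in MS, against 5.95% of all probes in either direction and 3.39% in this one. The 7 genes were COL16A1 (-1.36 ± 0.15, adjusted p 1.2e-08), COL1A2 (-1.18 ± 0.18, adjusted p 8.9e-06), COL1A1 (-1.13 ± 0.15, adjusted p 5.2e-07), COL3A1 (-1.05 ± 0.15, adjusted p 1.1e-06), COL21A1 (-0.90 ± 0.17, adjusted p 0.00024), COL18A1 (-0.72 ± 0.17, adjusted p 0.0035) and COL4A1 (-0.69 ± 0.12, adjusted p 4.9e-05). Among these are both chains of type I and the chain of type III collagen. Without the 3 arrays that stood apart 7 genes were called. The difference was called on 3 of the 4 probes of COL1A2, 4 of the 5 of COL4A1 and 2 of the 4 of COL21A1. COL16A1 was not called with the mean of its 2 probes (adjusted p 0.035), although each probe alone was, and COL4A1 was not called with arrays scaled to their 75th percentile (adjusted p 0.012). The brightest COL16A1 probe had a value in only 7 MSLW d90 fetuses, so the mean in the remaining fetus could not include it. Whether this led to the lost call was not tested. COL15A1 (-0.67 ± 0.19, adjusted p 0.012), COL8A1 (-0.74 ± 0.21, adjusted p 0.014) and COL27A1 (-0.59 ± 0.18, adjusted p 0.024) came nearest among the others. Of the 4 probes of COL15A1, 3 were called lower, and they ran from -1.07 to -0.67. The breed differences and the age changes share fetuses, so the 3 sets of values are not independent of each other.

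COL7A1, the chain of the anchoring fibrils that fasten basement membranes, differed between the breeds at both days and was called with age in no genotype on its brightest probe. Of the other 3 probes 1 was called higher at d110 in MS (0.48), and none in another genotype. On its brightest probe it ran from 11.78 to 13.24 (median 12.11) in LW and 10.16 to 10.51 (median 10.39) in MS at d90, and from 11.91 to 13.83 (median 12.73) in LW and 10.48 to 11.06 (median 10.76) in MS at d110. The breeds did not overlap, and LW was 3.61-fold higher at d90 and 4.29-fold higher at d110 (adjusted p 0.00038 and 2.9e-05). LWMS fetuses ran from 10.22 to 12.39 (median 11.25) at d90 and from 10.37 to 13.19 (median 10.68) at d110, MSLW fetuses from 10.08 to 12.62 (median 12.23) at d90, and the 5 MSLW fetuses of d110 were at 10.53, 10.57, 10.76, 12.89 and 13.09. The crosses fell into both ranges: of 29 cross fetuses, 14 lay at or below the highest MS fetus of their day, 13 at or above the lowest LW fetus and 2 between. In LWMS these counts were 3, 4 and 1 at d90 and 6, 2 and 0 at d110, and in MSLW 2, 5 and 1 at d90 and 3, 2 and 0 at d110. The other 3 probes, which include the probe of the helix repeat printed above, gave -0.22 to 0.11 at d90 and 0.01 to 0.21 at d110 for MS less LW, with no call. The breed difference of COL7A1 was therefore measured on 1 of 4 probes.

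**Figure D4:**
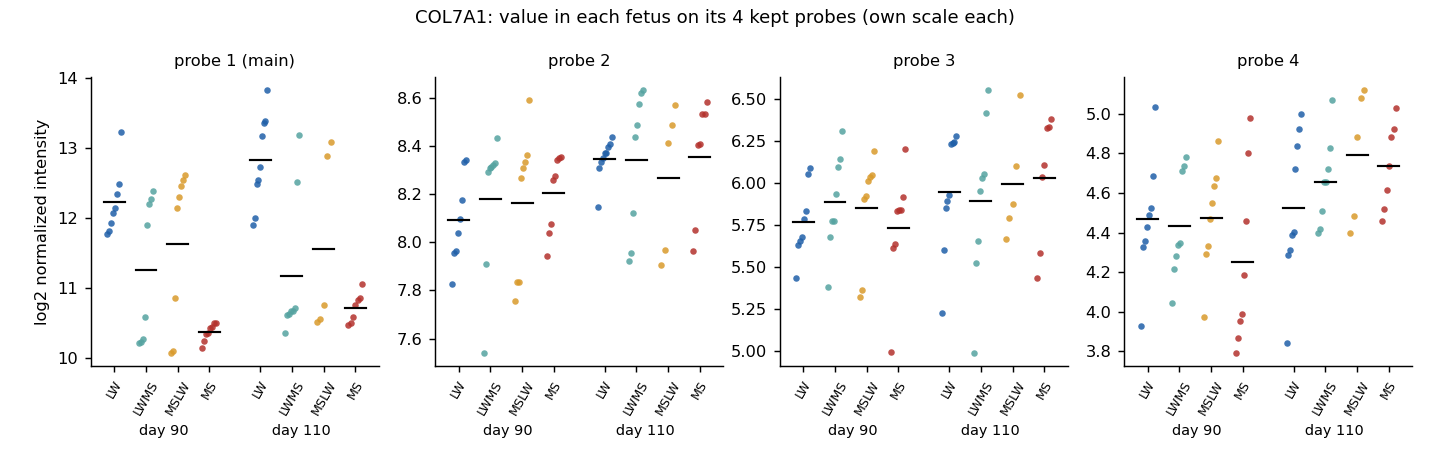
Value of COL7A1 in each fetus (points, placed in order of value) and group mean (line) on its 4 kept probes, with log2 normalized intensity on the y axis and genotype and gestational day on the x axis; each panel has its own scale. On the first probe LW lies above MS at both days and the crosses fall into both ranges, and on the other 3 probes the groups overlap.

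The reciprocal crosses were compared to ask whether the direction of the cross mattered. By limma, 0 of 29 genes were called between LWMS and MSLW at d90 and 0 at d110, against 0.5% and 0.912% of all probes, and 2 genes at d90 and 6 at d110 had an unadjusted p under 0.05. COL8A1 at d110 came nearest (-0.58 ± 0.17, interval -0.92 to -0.23, adjusted p 0.052), lower in LWMS, followed by COL14A1 (0.31 ± 0.10, adjusted p 0.070), higher in LWMS. The difference of COL1A1 at d110 had an interval of -0.26 to 0.23, that of COL3A1 -0.30 to 0.17 and that of COL4A1 -0.13 to 0.24. Against the mean of the parent breeds, 0 genes were called at either day by limma, against 0.0495% and 0.0778% of all probes, with 1 gene at d90 (COL10A1, 0.54) and 1 at d110 (COL1A1, 0.17) at an unadjusted p under 0.05. At d110 the crosses less the parental mean had 95% intervals of 0.01 to 0.33 for COL1A1, -0.18 to 0.15 for COL16A1 and -0.10 to 0.21 for COL3A1.

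In the parental model, which asks whether the age change differs with the genotype of the sow or of the boar, the age change was more negative with an MS sow for 6 genes, against 3.05% of all probes in either direction. These were COL16A1 (-0.65 ± 0.11, adjusted p 0.00011), COL3A1 (-0.60 ± 0.10, adjusted p 0.00014), COL1A1 (-0.57 ± 0.11, adjusted p 0.00055), COL1A2 (-0.63 ± 0.13, adjusted p 0.0012), COL8A1 (-0.66 ± 0.15, adjusted p 0.0039) and COL21A1 (-0.52 ± 0.12, adjusted p 0.0048). With an MS boar it was more negative for 2 genes, COL16A1 (-0.70 ± 0.11, adjusted p 0.00010) and COL1A1 (-0.55 ± 0.11, adjusted p 0.0031), against 0.462% of all probes. These calls are those of the brightest probes. The sow's term was called on 2 of 2 probes for COL1A1 and on 1 of 2 for COL16A1 and COL3A1. For COL1A2 (-0.63 to -0.22) and COL21A1 (-0.52 to -0.29) it was called on 1 of 4, and for COL8A1 (-0.66 to -0.11) on 1 of 3. Although not called on their brightest probes, COL15A1 had 3 of 4 probes called and COL4A1 3 of 5. The boar's term was called on 1 of 2 probes for COL16A1 and for COL1A1. COL1A1 and COL16A1 had terms of similar size for both parents. For the genes called with the sow only, the boar's term was -0.54 ± 0.13 for COL1A2, -0.45 ± 0.11 for COL3A1, -0.38 ± 0.12 for COL21A1 and -0.08 ± 0.16 for COL8A1, none called. Fewer probes of the whole array were called for the boar, which also raises the adjusted p of a given term. The counts of 6 and 2 therefore do not show a larger term of the sow. The maternal and paternal terms were not tested against each other. The day and the sow's genotype vary between litters and the boar's genotype within them, and the fit took littermates as independent, so p-values for the day and the sow can be too small. The paternal count was 5 without MSLW d110 replicate 3.

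Within groups, fetuses that were high in 1 fibrillar chain were high in others. Over 61 fetuses, with each value taken less its group mean, Pearson's r was 0.87 between COL1A2 and COL3A1, 0.85 between COL1A1 and COL1A2 and 0.80 between COL1A1 and COL3A1. With the mean of these 3 chains, COL16A1 (0.73), COL8A2 (0.73), COL8A1 (0.69), COL5A2 (0.58), COL6A3 (0.58), COL12A1 (0.54) and COL27A1 (0.53) ran highest, COL4A1 stood at 0.43, and COL5A3 (0.08), COL6A5 (-0.15), COL7A1 (-0.22) and COL17A1 (-0.34) lowest among the genes above background in all groups. COL2A1 and COL11A2, both of cartilage fibres, went together at 0.70. COL12A1, which binds type I fibres, went with them as closely, at 0.69 with COL2A1 and 0.70 with COL11A2. These values share arrays, slides and litters and are given as a description.

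**Figure D5:**
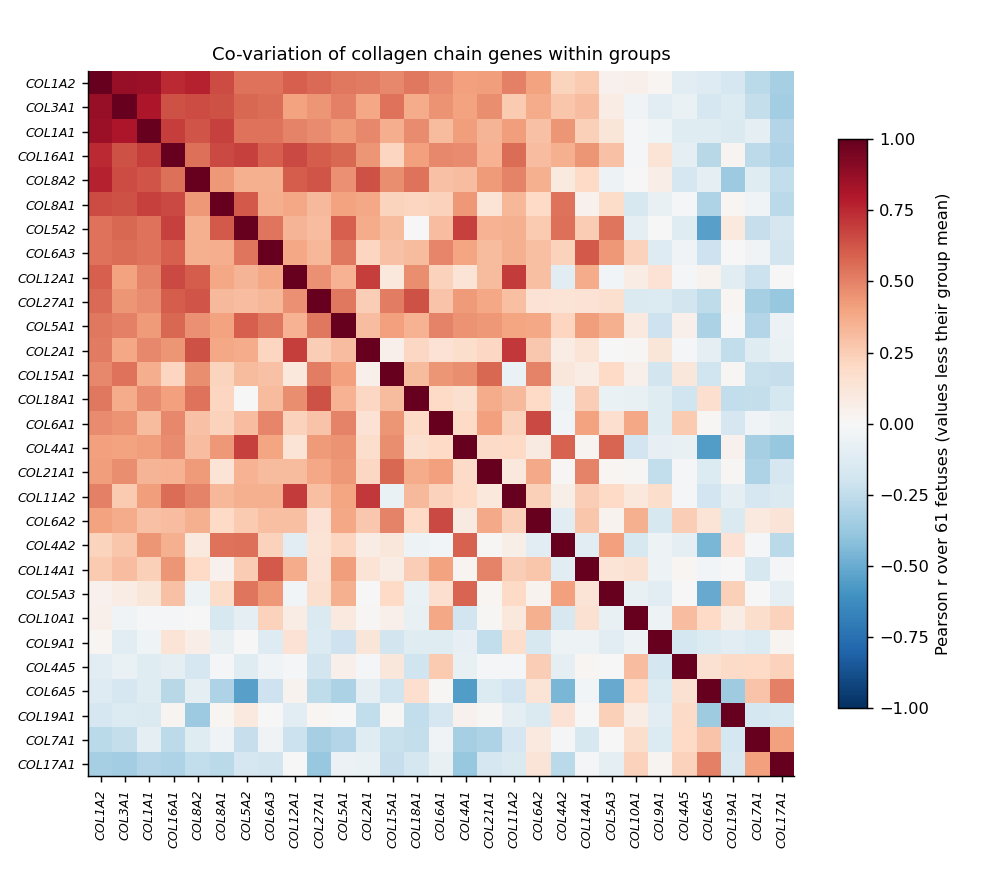
Pearson's r between 29 collagen chain genes over 61 fetuses, each value taken less its group mean (colour, from -1 to 1), with genes on both axes in order of their r with the mean of COL1A1, COL1A2 and COL3A1. The type I and III chains form the darkest block, with COL16A1, COL8A2 and COL8A1 beside it, and COL6A5, COL7A1 and COL17A1 are pale or blue against it.

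Among 10690 other named genes, whose median r with the mean of the 3 chains was 0.0094 (quartiles -0.12 and 0.15), the 10 most alike were FN1 (0.83), CTHRC1 (0.78), DCN (0.78), FNDC1 (0.77), SERPINF1 (0.77), ANGPTL1 (0.75), ASPN (0.75), POSTN (0.73), CCDC80 (0.72) and SFRP4 (0.72). FN1 encodes fibronectin, a matrix glycoprotein, DCN and ASPN encode small proteoglycans that bind collagen fibres, and POSTN encodes periostin, a matrix protein of growing connective tissue. All 10 fell with age in LW and MS, with FN1 at -2.00 in LW and -2.61 in MS and POSTN at -3.10 and -4.12. All 10 were also lower in MS than in LW at d110, from -0.49 for FN1 to -1.53 for FNDC1.

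For the 5 contested probes, the letters or the values could be set against the collagens named. The probe named COL1A2 in the study's lists had the same 60 bases as a COL1A1 probe and correlated with the COL1A1 probes at 0.87 to 0.96 within groups. The probe named COL5A2 had the same 60 bases as a COL5A1 probe, with r of 0.95 to it. The probe named COL7A1 correlated with the probes of its other candidate, COL6A3, at 0.41 to 0.79 and with the COL7A1 probes at no more than 0.42. The probe named COL17A1 shared a run of 12 bases with a COL16A1 probe. Its r was 0.27 to 0.34 with the COL16A1 probes and -0.29 with the kept uncontested COL17A1 probe. The probe named COL20A1 correlated with COL1A2 probes at 0.20 to 0.87 and shared a run of at most 6 bases with them. All 5 had negative age differences, between -1.75 and -0.54 in LW and between -2.59 and -1.07 in MS.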

How the data were processed

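Longissimus muscle RNA of 61 fetuses was hybridised to single-colour arrays. The authors deposited scanner files with spot intensity values, extracted with Agilent Feature Extraction 10.10.1.1 per the submitters' processing notes, and a table of normalized log2 values, used here as an alternative. From the processed signal, control spots were dropped, non-uniform spots were set missing, arrays were quantile normalized, log2 was taken and spots of a probe were averaged. Of 60305 probes, 42436 had a signal well above background in a minimum of 80% of the fetuses of any group. The limma fit (version 3.58.1, R 4.3.3) used 8 group means, and Benjamini-Hochberg adjusted p-values under 0.01 were called. The parental model held gestational day, the sow's and the boar's genotype and their pairwise interactions. The study's model had the sow as a random effect, which is not given per fetus in the sources used here.

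The level of a gene is that of its brightest uncontested probe. Every kept collagen gene is named, and values are given in full for 5 fibrillar, 3 basement membrane and 6 other genes with the largest mean age change, for those whose age change differed between MS and LW and for those that rose. Other lists (hydroxylation, folding and secretion, propeptide removal and crosslinking, degradation and uptake, receptors, and markers of fibroblasts, endothelium, tendon, cartilage and bone, myofibres, smooth muscle and pericytes, adipocytes, immune cells and epithelium) are given by counts with the largest changes. A further marker list is not reported here. A summed list level is log2 of summed normalized intensities. Members and lists were chosen with earlier results of these data known. Of the probes, 9870 were named through RefSeq accessions, 15919 by the array and 432 by the study's gene lists. Alternatives changed the background correction, scaling, filter, probe rule, samples, slide and values used. The scripts were tested on simulated data. The number of arrays limits the precision.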

Additional observations from a re-analysis of the deposited data

Results flagged for a closer look

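In 15 of 136 pairs of a gene and a group, 1 fetus lay apart from the rest of its group by Dixon's test, which chance does in about 1 in 20 groups. For the type IV chains these were COL4A1 in LW d90 replicate 8 (15.45) and LWMS d110 replicate 8 (14.41), COL4A2 in MSLW d90 replicate 8 (12.58) and LWMS d110 replicate 8 (12.50), and COL4A5 in MSLW d90 replicate 2 (5.21), LW d90 replicate 8 (6.83), MS d90 replicate 3 (2.07) and LWMS d110 replicate 4 (4.94). LW d90 replicate 8 and MSLW d90 replicates 2 and 8 are the arrays with the most non-uniform spots. Replicate 8 of LW d90, MSLW d90, LWMS d110 and MS d90 lay on the same slide, and the last 2 had 37 and 45 such spots. Whether the slide or the spots account for the flags was not tested. The fibrillar chains had COL1A2 in MSLW d110 replicate 3 (15.45), COL2A1 in MSLW d110 replicate 4 (6.06) and COL3A1 in LW d110 replicate 7 (15.13). The others were COL16A1 in MSLW d90 replicate 6 (15.32), COL21A1 in MS d90 replicate 8 (14.81), COL9A1 in MSLW d90 replicate 2 (1.59) and COL10A1 in LWMS d110 replicate 8 (5.37).

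The test of the difference in age change between the breeds was called for COL16A1 (-1.36), COL1A2 (-1.18), COL1A1 (-1.13), COL3A1 (-1.05), COL21A1 (-0.90), COL18A1 (-0.72) and COL4A1 (-0.69). On the brightest probe, the age change differed with the sow's genotype for COL8A1 (-0.66), COL16A1 (-0.65), COL1A2 (-0.63), COL3A1 (-0.60), COL1A1 (-0.57) and COL21A1 (-0.52), and with the boar's genotype for COL16A1 (-0.70) and COL1A1 (-0.55).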

How the results depend on the processing

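No called collagen result changed sign under the alternatives that were run, while some differences that were not called did. Of 116 single gene results called, 95 were called in every alternative. Over the alternatives the count of genes called with age ran from 17 to 20 in LW, 19 to 21 in LWMS, 20 to 24 in MSLW and 22 to 25 in MS, the breed count from 17 to 19 at d110 and from 3 to 6 at d90, and that of the breed difference in age change from 6 to 10. With the mean of a gene's probes 3 genes were called between the breeds at d90, against 5. With arrays scaled to their 75th percentile, the median age change in MS was -0.43 for basement membrane and -1.53 for fibrillar genes, against -0.94 and -2.09, and the median over all probes in MS was 0.13, against 0.03. With normexp background correction the fibrillar median between the breeds at d110 was -0.58, against -0.83. The paternal count of 2 was 1 with the 75th percentile, 4 with probes above background on all arrays and 5 without MSLW d110 replicate 3. Leaving out each MSLW d110 fetus in turn gave 20 to 21 genes with age in MSLW, 2 to 5 for the paternal and 4 to 9 for the maternal term, and 0 for the crosses and the mid-parent at d110. The cause of these shifts was not tested. Dim genes (COL4A5, COL9A1, COL10A1, COL19A1) were limited by signal over background. No paired analysis was possible because the replicate numbers are only accession order, and the slides that arrays shared were used as a block and for differences within slides instead.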
